A study of Rattus norvegicus with 8 samples.

Results

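Thyroid hormone action in the liver was examined through 8 genes chosen by name: the receptor genes Thra and Thrb, their dimer partner Rxra, the deiodinase gene Dio1, the serum carrier genes Ttr and Serpina7, and the hormone-responsive genes Klf9 and Thrsp. Of the 8 genes, 7 had a probe that could be matched by its RefSeq accession, and Serpina7, which encodes thyroxine-binding globulin, had none. A gene was shown by its probe of highest mean Cy5 signal. Of the matched genes, 6 were bright enough to be tested, with Cy5 called well above background on 4 or more of the 8 arrays. This rule was met by 10004 of 15154 named genes with any probe, and Thrb did not meet it.

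The AhR group comprised male Sprague-Dawley rats whose dams had been given non-ortho polychlorinated biphenyls, dioxins and furans, agonists of the aryl hydrocarbon receptor (AhR), at 1.8 ng of dioxin toxic equivalents per kg per day. The control group comprised males of the same strain whose dams had been given corn oil. Dosing of the dams ran from gestation day 0 to postnatal day 20. Offspring of both groups stayed with their birth mothers and were sampled at 78 to 86 days of age, after dosing had ended. Each group had 4 arrays, and each array held liver RNA pooled from 2 rats. Cy5 marked the liver RNA and Cy3 a commercial rat reference made from 14 cell lines, with no dye swap. Values are log2 ratios of Cy5 over Cy3 after background correction and loess normalization. Dioxin-like compounds are known to lower circulating thyroid hormone, and the question here was whether the genes that carry, activate and respond to it differed in adult liver after early exposure.

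The thyroid gland releases mainly thyroxine, which carrier proteins made by the liver, among them transthyretin and thyroxine-binding globulin, hold in the blood. Hepatocytes take the hormone up through membrane transporters, and deiodinase 1 converts thyroxine to the active triiodothyronine. Triiodothyronine binds receptors encoded by Thra and Thrb, which act on target genes mostly as heterodimers with retinoid X receptors, while conjugation by glucuronosyltransferases and sulfotransferases prepares the hormone for excretion. In liver the beta receptor is known as the main form.

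All 8 arrays lay on 1 slide, in 2 rows that each held 2 arrays of each group. The median Cy5 signal was 163 to 232 units on the AhR arrays and 159 to 184.5 units on the control arrays, over a local background of 71 to 76 units. AhR replicate 2 had the highest median. All 12 hepatocyte markers were above background, with a summed Cy5 signal of 1574000 to 1876000 on AhR arrays and 1560000 to 1762000 on control arrays. Markers of other cells were present too, and for red cells (5 of 7 genes kept) all 5 means were lower in the AhR group, with a median difference of -0.35 and a summed signal of 193300 to 365200 on AhR arrays and 263200 to 421500 on control arrays. For Kupffer cells (10 of 10 kept) 9 means were higher in the AhR group, with a median difference of 0.15, and the sums were 48460 to 86680 on AhR arrays and 36750 to 65230 on control arrays. For stellate cells (9 of 10) 8 means were higher, with a median of 0.11, and the sums were 15010 to 21270 on AhR arrays and 12300 to 16660 on control arrays. Endothelial markers (6 of 10) had all 6 means higher in the AhR group, with a median of 0.14, and summed to 8443 to 10740 on AhR arrays and 6151 to 10940 on control arrays. Cholangiocyte markers (5 of 8) had 4 means higher, with a median of 0.10, and summed to 869.7 to 1307 on AhR arrays and 775.2 to 1123 on control arrays. The part of these cells in the results below was not tested, and in whole liver fewer cells of a type and less RNA per cell cannot be told apart.

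None of the 6 thyroid hormone genes above background passed a test of difference between AhR and control livers. In limma over all 17859 kept probes, 0% passed an adjusted p of 0.05, 1.61% had an unadjusted p under 0.05, and in 1.19% the groups did not overlap. Of the 6 genes, 0 passed the adjusted threshold, 0 had an unadjusted p under 0.05 and 0 had groups that did not overlap. The AhR mean was the higher in 4 of them and the lower in 2, and the median difference was 0.02, beside a median of 0.00 over the 10004 named genes. What set these genes apart from one another was the spread between arrays of the same group, which was wider for Thrsp, Klf9 and Rxra than for Thra, Dio1 and Ttr.

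The upstream sequences of the genes that varied most between arrays, Thrsp and Klf9, are shown because both are known targets of the thyroid hormone receptor. They are the 250 bases before the RefSeq start on assembly GRCr8, 5′ to 3′ on the gene's strand, with the core of the AhR response element (GCGTG, read as CACGC on the opposite strand) in capitals where it occurred.
Klf9, chr1:230126396-230126645, plus strand: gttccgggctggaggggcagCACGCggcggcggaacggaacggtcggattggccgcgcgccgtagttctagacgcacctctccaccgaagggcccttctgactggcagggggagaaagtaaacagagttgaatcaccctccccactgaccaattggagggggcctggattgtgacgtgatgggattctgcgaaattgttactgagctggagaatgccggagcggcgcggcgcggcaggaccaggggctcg
Thrsp, chr1:161138965-161139214, minus strand: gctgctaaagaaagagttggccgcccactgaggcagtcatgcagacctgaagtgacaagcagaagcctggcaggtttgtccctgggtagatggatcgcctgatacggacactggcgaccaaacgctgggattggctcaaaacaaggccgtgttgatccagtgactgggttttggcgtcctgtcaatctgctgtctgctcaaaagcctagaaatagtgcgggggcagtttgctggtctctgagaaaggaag

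The windows searched ran 250 bases before to 50 bases after each start, on both strands. All 8 genes matched the RefSeq table, with 9 windows because Thra has 2. The nuclear receptor half-site AGGTCA, its direct repeat with a spacer of 4, the D-box TTATGTAA and the E-box CACGTG were found in none of the 9 windows. Among all 33469 windows of this length the shares were 16.2%, 0.00598%, 0.893% and 6.42% in that order. GCGTG was found in the windows of Klf9 and Thrb. In Klf9 it lay on the strand opposite to the gene's, 230 bases before the start. In Thrb it lay on the gene's own strand, 53 bases before the start. GCGTG was present in 29.7% of all windows. These are matches of letters in a short window, and elements outside it were not searched.

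Thra encodes the alpha receptor. Its Cy5 signal was 220.25 to 258.5 units on AhR arrays and 203 to 286.25 units on control arrays, well above background on all 8. Its log2 ratios were 0.01, -0.37, -0.20 and 0.05 on AhR replicates 1 to 4, and -0.17, -0.23, 0.15 and -0.28 on control replicates 1 to 4. The groups overlapped over most of their ranges. The means were -0.13 ± 0.19 in AhR livers and -0.13 ± 0.20 in control livers (SD, n = 4 each), a difference of 0.01 (95% interval -0.28 to 0.29, limma adjusted p = 1.00). The span of Thra in the RefSeq table shares 1061 bases with that of the clock gene Nr1d1 and 467 with that of Med24, a Mediator subunit gene, and the probe's place in the gene was not determined. Nr1d1, measured by its own probe, had log2 ratios of 0.52, 0.48, 0.30 and -0.10 on the AhR arrays and 0.14, -0.38, 0.36 and 0.44 on the control arrays.

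Thrb, the gene of the beta receptor, lay at the edge of detection. Its Cy5 signal was 84 to 99 units on AhR arrays and 91 to 98.5 units on control arrays. It was well above background on 0 of 4 AhR arrays and on 1 of 4 control arrays, control replicate 4, so no fold is given. The Thrb probe therefore gave no measure of the receptor that is known as the main form in liver.

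Rxra encodes the retinoid X receptor that pairs with both thyroid hormone receptors and with many other nuclear receptors. Its Cy5 signal was 295 to 406.25 units on AhR arrays and 264.25 to 425 units on control arrays, well above background on all 8. Its log2 ratios were -0.46, -0.37, -0.40 and 0.37 on AhR replicates 1 to 4, and -0.11, 0.33, 0.00 and -0.71 on control replicates 1 to 4. AhR replicate 4 stood far above the other AhR arrays, control replicate 4 was the lowest of all, and the groups overlapped. The means were -0.21 ± 0.39 in AhR livers and -0.12 ± 0.44 in control livers (SD, n = 4 each), a difference of -0.09 (95% interval -0.61 to 0.42, limma adjusted p = 1.00). Without control replicate 2 the difference was 0.06.

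Dio1 encodes the deiodinase that removes an iodine from thyroxine, and it is itself a known target of the hormone. Its log2 ratios were -0.02, -0.01, -0.16 and 0.07 on AhR replicates 1 to 4, and -0.33, -0.30, 0.21 and 0.16 on control replicates 1 to 4. The AhR arrays lay close together, inside the range of the control arrays, of which replicates 1 and 2 were low and replicates 3 and 4 high. The means were -0.03 ± 0.10 in AhR livers and -0.06 ± 0.29 in control livers (SD, n = 4 each), a difference of 0.04 (95% interval -0.27 to 0.34, limma adjusted p = 1.00).

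Ttr encodes transthyretin. Its log2 ratios were 0.19, 0.44, 0.44 and 0.44 on AhR replicates 1 to 4, and 0.54, 0.78, 0.50 and 0.12 on control replicates 1 to 4. Of the control arrays 3 lay above every AhR array, while control replicate 4 lay below all of them. Before normalization, control replicates 2 and 4 had nearly the same Cy5 signals (313570.5 and 313042 units) and Cy3 signals (133861.5 and 130574 units). The gap between their log2 ratios, 0.78 and 0.12, thus appeared only after normalization. Whether it reflects the livers was not tested. The means were 0.38 ± 0.13 in AhR livers and 0.49 ± 0.28 in control livers (SD, n = 4 each), a difference of -0.11 (95% interval -0.41 to 0.19, limma adjusted p = 1.00). The fold was 0.927, with an interval of 0.751 to 1.14. The difference was -0.01 without control replicate 2, -0.05 without AhR replicate 1 and -0.23 without control replicate 4.

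Klf9 encodes a zinc-finger transcription factor that responds to thyroid hormone and to glucocorticoids. For Klf9 the log2 ratios were 0.63, 0.01, -0.04 and -0.58 on AhR replicates 1 to 4, and 0.34, -0.88, -0.20 and 0.07 on control replicates 1 to 4. AhR replicate 1 was the highest of the 8 arrays and control replicate 2 the lowest, and the arrays in between were mixed. The means were 0.01 ± 0.50 in AhR livers and -0.17 ± 0.52 in control livers (SD, n = 4 each), a difference of 0.18 (95% interval -0.45 to 0.80, limma adjusted p = 1.00). The difference was -0.03 without AhR replicate 1 and -0.06 without control replicate 2.

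Thrsp encodes the Spot 14 protein of lipid synthesis, which rises with thyroid hormone and with carbohydrate feeding in rat liver. Log2 ratios of Thrsp were 0.23, 1.00, 0.00 and -0.93 on AhR replicates 1 to 4, and -0.26, 0.01, 0.18 and -0.42 on control replicates 1 to 4. Both the highest and the lowest of the 8 arrays were AhR arrays, and the control arrays lay inside their range. The means were 0.08 ± 0.79 in AhR livers and -0.12 ± 0.27 in control livers (SD, n = 4 each), a difference of 0.20 (95% interval -0.52 to 0.91, limma adjusted p = 1.00). Without AhR replicate 2, which also had the highest median Cy5 signal, the difference was -0.11. Without AhR replicate 4 it was 0.53.

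**Figure D1:**
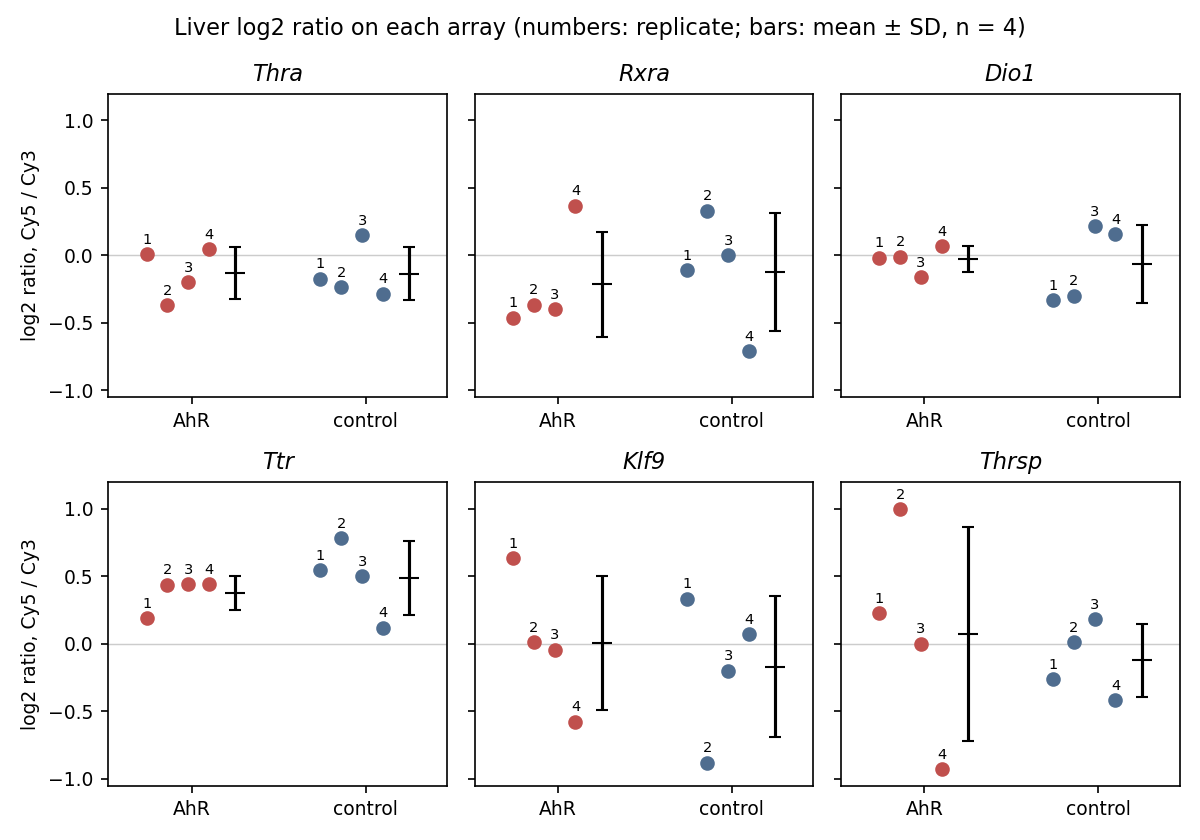
Log2 Cy5 over Cy3 of the 6 genes above background, by gene, with AhR arrays left of control arrays, numbers naming the replicates and bars giving the mean and SD (n = 4 each). In every gene the groups overlap, and Thrsp runs from -0.93 to 1.00 within the AhR group.

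With 4 arrays against 4 the exact two-sided permutation test can give no p below 0.0286. It gave 0.429 for Ttr, 0.686 for Thrsp and for Klf9, 0.743 for Rxra, 0.857 for Dio1 and 1 for Thra, each over 70 splits. The widths of the intervals differ by gene. For Thra, Dio1 and Ttr they reach at most 0.41 on the log2 scale in either direction, while for Thrsp they reach 0.91.

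The within-group SD was 0.592 for Thrsp, which ranked 104 among the 10004 named genes from the most variable down. It was 0.509 for Klf9, at rank 167, and 0.413 for Rxra, at rank 370. The median gene had an SD of 0.169, while Dio1 had 0.216, Ttr 0.214 and Thra 0.194. Duplicate spots of the same probe varied far less, with an SD of 0.021 for Thrsp, 0.022 for Klf9 and 0.101 for Rxra. In linear terms the highest array exceeded the lowest by 3.79-fold among AhR livers and 1.52-fold among control livers for Thrsp. For Klf9 the same ratios were 2.31-fold among AhR livers and 2.32-fold among control livers, and for Rxra 1.78-fold among AhR livers and 2.06-fold among control livers.

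**Figure D2:**
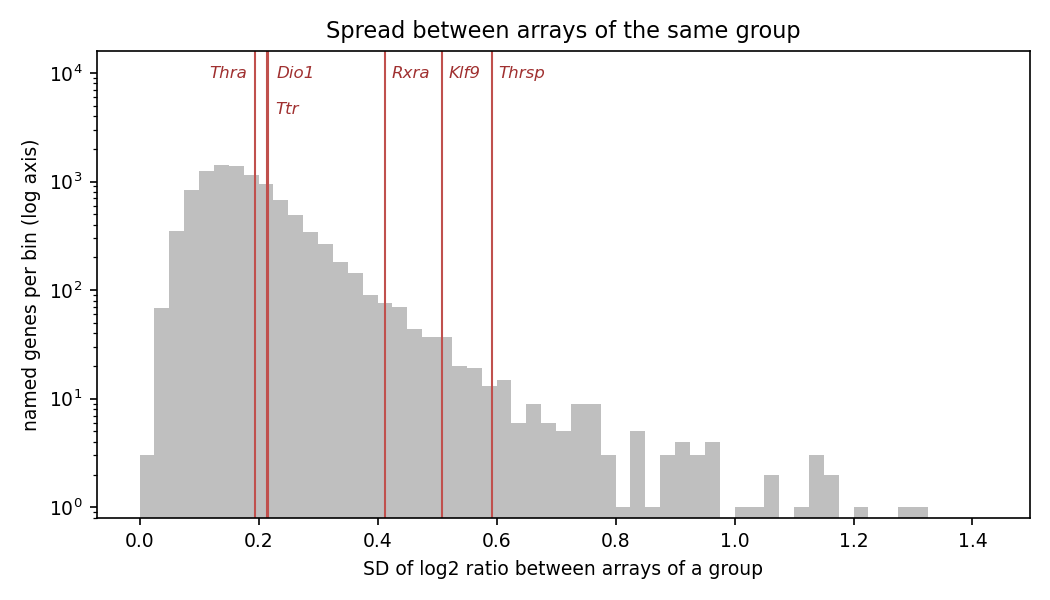
Number of the 10004 named genes (log axis) by within-group SD of the log2 ratio, with the 6 thyroid hormone genes marked by lines. Thrsp, Klf9 and Rxra lie in the upper tail at 0.592, 0.509 and 0.413, and Thra, Dio1 and Ttr lie nearer the median of 0.169.

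Dbp, a transcription factor gene of the circadian clock's output, is known to swing widely over the day in liver. It was set beside the thyroid hormone genes for that reason and because it varied most within groups in earlier results of these data. Its within-group SD was 1.32, at rank 1 among the 10004 named genes. Its log2 ratios were 1.41, 1.22, 0.08 and -2.21 on AhR replicates 1 to 4, and 0.32, -1.36, -1.52 and -0.42 on control replicates 1 to 4. Among 21 relations computed between the 6 genes and with Dbp, none passed an adjusted p of 0.05. The 3 largest by size follow. Klf9 and Dbp had r = 0.81 (exact permutation p = 0.0154, adjusted p = 0.190) and rho = 0.81 (p = 0.0218, adjusted p = 0.229) over 8 arrays. Without the 2 arrays farthest from the median of Klf9, r was 0.78 (exact permutation p = 0.0639). It was 0.80 after centring on group means and 0.81 after centring on slide rows.

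Ttr and Rxra had r = 0.79 (exact permutation p = 0.0181, adjusted p = 0.190) and rho = 0.81 (p = 0.0218, adjusted p = 0.229). Without the 2 arrays farthest from the median of Ttr, control replicates 2 and 4, r was 0.47 (exact permutation p = 0.303). Without control replicate 2 alone it was 0.69, and without control replicate 4 alone 0.67. Over all 8 arrays r was 0.79 after centring on group means and 0.77 after centring on slide rows. With the Cy5 channel alone r was 0.04 and with median centring 0.16.

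Klf9 and Rxra ran opposite to each other, with r = -0.76 (exact permutation p = 0.0296, adjusted p = 0.207) and rho = -0.76 (p = 0.0368, adjusted p = 0.257). Without the 2 arrays farthest from the median of Klf9, r was -0.65 (exact permutation p = 0.160). It was -0.75 after centring on group means and -0.80 after centring on slide rows. Each slide row held 4 arrays, too few for a correlation within it, and ratios of 1 array share that array's normalization.

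**Figure D3:**
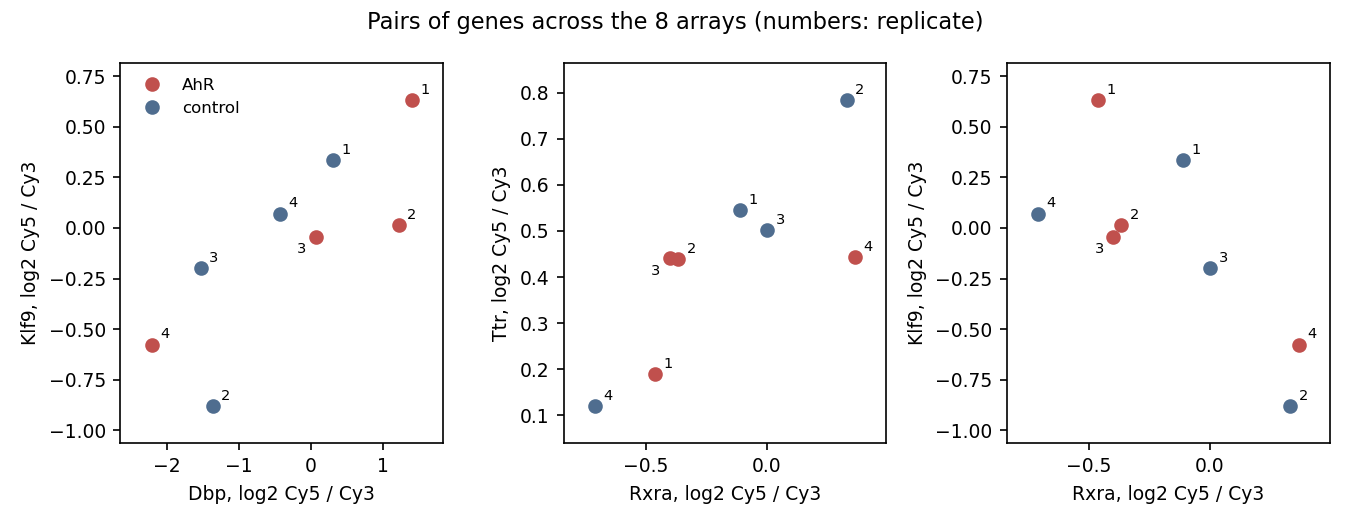
The 3 pairs of largest r over 8 arrays, each axis a log2 ratio of Cy5 over Cy3, with AhR and control arrays in different colours and numbered by replicate. Klf9 against Dbp gave r = 0.81, Ttr against Rxra 0.79 and Klf9 against Rxra -0.76, with none past an adjusted p of 0.05.

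For the 3 genes of widest spread, the genes most alike in pattern were found by Pearson's r of group-centred log2 ratios over the 8 arrays, among 10003 other genes. Thrsp was followed most closely by Bcl6b (0.97), Ung (0.97) and Kcne4 (0.94). Their within-group SDs were 0.233, 0.276 and 0.070 in that order, beside 0.592 for Thrsp, and r takes no account of such sizes. Klf9 was followed by Csrnp1 (0.98) and Fmo4 (0.96), and Rxra by Edem3 (0.99), F7 (0.98) and Map3k7 (0.97). Such values are the highest among 10003 over 8 arrays, and no p is given. The share of the 10003 genes with r of at least 0.9 in either direction was 2.08% for Rxra, 1.52% for Ttr, 0.86% for Dio1, 0.77% for Klf9, 0.52% for Thra and 0.29% for Thrsp.

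The rest of the pathway was followed through 5 lists, none of which held a gene past an adjusted p of 0.05 in limma, in either direction. The counts of higher and lower means below stand beside a share of 49.45% higher in the AhR group over the 10004 named genes. Of 11 hormone transporter genes 8 were kept, all 8 with a lower mean in the AhR group, and their median difference was -0.10. Slco1b2, a hepatic organic anion transporter, had log2 ratios of -0.52, -0.17, -0.23 and 0.03 on AhR replicates 1 to 4, and 0.34, 0.29, -0.10 and -0.15 on control replicates 1 to 4. Its groups overlapped, and the difference was -0.32 (SE 0.15, limma unadjusted p = 0.0568, adjusted p = 1.00). The bile acid transporter gene Slc10a1 differed by -0.29 (SE 0.20) and the organic anion transporter gene Slco1a1 by -0.10 (SE 0.10). Without control replicate 1 the difference of Slc10a1 was -0.10, and without AhR replicate 3 it was -0.17. That of Slco1a1 was -0.06 without control replicate 4. The list's median was -0.19 without control replicate 2 and -0.05 after median centring.

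Of 5 genes of other deiodinases and of binding proteins 4 were kept, all 4 with a lower mean in the AhR group and a median difference of -0.18. The iodotyrosine deiodinase gene Iyd differed by -0.16 (SE 0.13), the albumin gene Alb by -0.20 (SE 0.19) and Crym, which encodes a cytosolic binder of triiodothyronine, by -0.22 (SE 0.21). The difference of Alb was -0.06 without control replicate 1, -0.11 without AhR replicate 3 and -0.39 without control replicate 4. That of Crym was -0.06 without AhR replicate 1, -0.11 without control replicate 1, -0.12 without AhR replicate 3 and -0.40 without AhR replicate 4. That of Iyd was -0.07 without control replicate 4, -0.10 without AhR replicate 1 and -0.25 without control replicate 3. Without control replicate 1 the list's median was -0.09, and without AhR replicate 1 or 3 it was -0.11.

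Of 12 conjugation genes 8 were kept, 6 with a lower and 2 with a higher mean in the AhR group, and the median difference was -0.19. Sult1b1, a sulfotransferase that accepts thyroid hormones, had log2 ratios of -0.35, 0.02, -0.20 and 0.33 on AhR replicates 1 to 4, and 0.91, 0.21, 0.23 and 0.05 on control replicates 1 to 4. Control replicate 1 stood highest and the groups overlapped, with a difference of -0.40 (SE 0.20, limma unadjusted p = 0.0709, adjusted p = 1.00) and of -0.36 by a second probe. Without control replicate 1 it was -0.21. Sult1a1 differed by -0.26 (SE 0.15) and Ugt2b1 by -0.53 (SE 0.41). Without control replicate 1 the difference of Sult1a1 was -0.10. That of Ugt2b1 was -0.23 without AhR replicate 3, -0.30 without control replicate 1, -0.81 without control replicate 2 and -0.91 without AhR replicate 4. Without control replicate 1 the list's median was -0.05, without AhR replicate 1 -0.12 and without AhR replicate 4 -0.29. Ugt1a1, the glucuronosyltransferase most often linked to thyroxine, had no matched probe.

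Receptor partners and coregulators, 11 of 16 kept, had 4 higher and 7 lower means in the AhR group and a median difference of -0.01. Nrbf2, a nuclear receptor binding factor, had log2 ratios of -0.03, -0.11, 0.06 and -0.06 on AhR replicates 1 to 4, and 0.45, 0.29, 0.40 and -0.08 on control replicates 1 to 4. Control replicate 4 lay among the AhR arrays and the other control arrays above them. The difference was -0.30 (SE 0.12, limma unadjusted p = 0.0335, adjusted p = 1.00), and a second probe gave -0.21. Its unadjusted limma p depended on the processing. It was 0.107 with Agilent processed signals (difference -0.26), 0.128 with median centring (-0.22) and 0.0937 with the Cy5 channel alone (-0.19). Without background subtraction it was 0.0391 (-0.30). Gps2, which encodes a subunit of a nuclear receptor corepressor complex, differed by 0.09 (SE 0.10), with 0.04 without control replicate 2, 0.06 without AhR replicate 3, 0.14 without AhR replicate 2 and 0.15 without control replicate 4.

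Liver genes known to respond to thyroid hormone, 21 of 25 kept, had 12 higher and 9 lower means in the AhR group and a median difference of 0.01. Cpt1a, which encodes the carnitine palmitoyltransferase of mitochondrial fatty acid uptake, had log2 ratios of 0.81, 0.33, 0.17 and 0.57 on AhR replicates 1 to 4, and -0.20, -0.22, -0.43 and 0.35 on control replicates 1 to 4. Control replicate 4 lay inside the AhR range and the other control arrays below it. The difference was 0.59 (SE 0.18, limma unadjusted p = 0.00768, adjusted p = 1.00). The isocitrate dehydrogenase gene Idh3a differed by 0.27 (SE 0.17), with 0.12 without control replicate 1 and 0.43 without control replicate 4. Me1, the malic enzyme gene long used as a readout of thyroid hormone in rat liver, differed by -0.07 (SE 0.21), with 0.06 by a second probe and 0.01 after median centring.

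**Figure D4:**
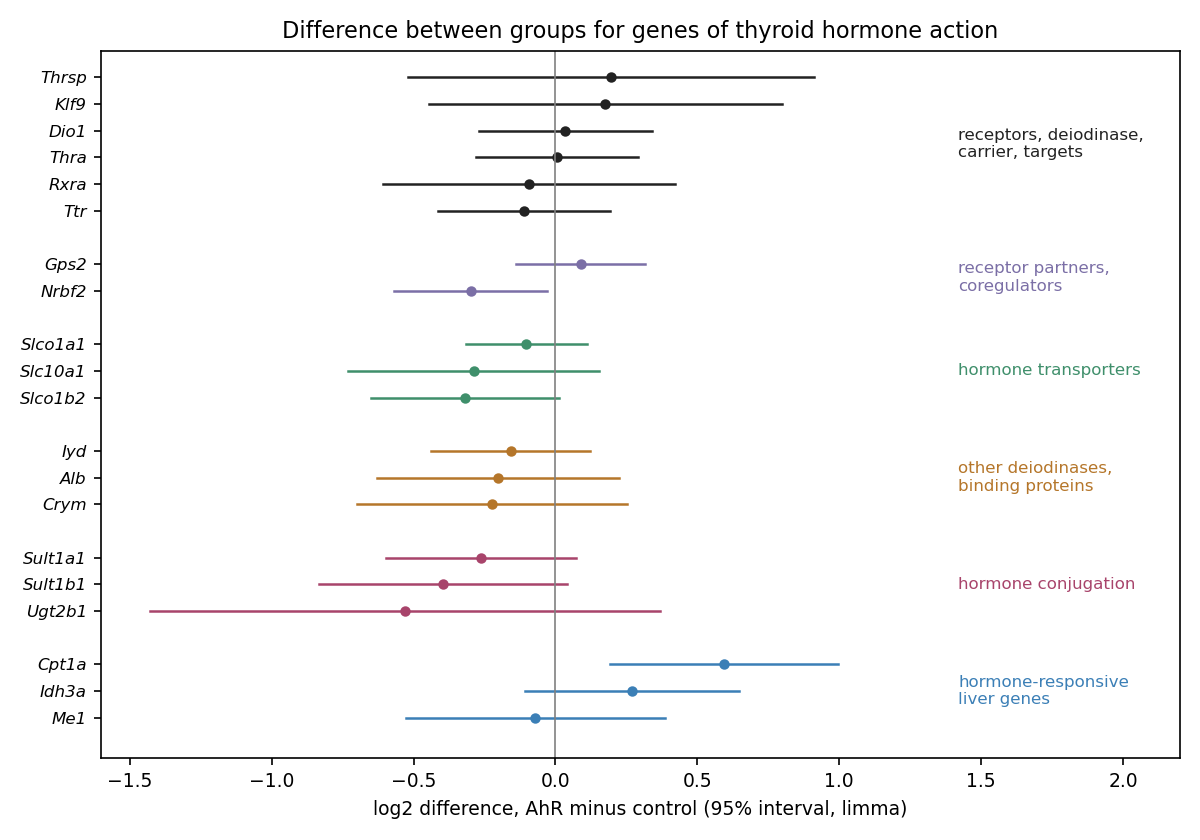
Difference in log2 ratio, AhR minus control, with its 95% limma interval for the 6 thyroid hormone genes and the genes named above from the 5 pathway lists. The intervals of Cpt1a (0.59) and Nrbf2 (-0.30) leave 0 outside, and neither gene passed after adjustment.

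Of 7 AhR target genes 2 were kept, with 1 mean higher and 1 lower in the AhR group and none past the threshold. The lower was that of Nqo1, with a difference of -0.35 (SE 0.20). Cyp1a1, the classical AhR target, was well above background on 1 of 4 AhR arrays and 2 of 4 control arrays. Cyp1a2 differed by 0.26 (SE 0.25, limma adjusted p = 1.00), and with 1 array left out the difference ran from 0.13 (without control replicate 2) to 0.45 (without AhR replicate 2). Dbp differed by 0.87 (SE 0.71, limma adjusted p = 1.00), with 0.44 without AhR replicate 1 and 1.65 without AhR replicate 4.

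Against the reference channel the 6 genes had mean log2 ratios over all 8 arrays of 0.43 for Ttr, -0.02 for Thrsp, -0.05 for Dio1, -0.08 for Klf9, -0.13 for Thra and -0.17 for Rxra. The Cy3 signal of Ttr ran from 116624 to 150879 units, so that the reference channel carried this hepatic transcript as well. Loess within each array removes the average difference between the channels at a given brightness. These ratios are therefore not absolute levels of liver over reference, and without a dye swap they are open to dye bias.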

How the data were processed

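The intensity values, median spot and local background brightness, came from the scanner files the authors deposited, which the file headers credit to Agilent Feature Extraction 10.7.3.1 on an array designed on the rn4 build. Processed signals in the same files were already background-subtracted and dye-normalized, per the file headers. A log2 table was deposited by the authors too, with no scale stated. Its columns tracked log2 Cy5 over Cy3, taken without background subtraction and after loess (r 0.9898 to 0.9943, slope 0.978 to 0.988, column medians 0.00569 to 0.0165), and the form of its dye correction stays unknown.

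Here, normexp (offset 50) and within-array loess were applied with limma 3.58.1 (R 4.3.3). Control spots and outlier spots had weight 0, and a probe's spots were averaged. Of 62976 spots, 4259 were controls. The others made up 30367 probes, and 17859 were kept because their Cy5 was well above background on 4 or more of 8 arrays. RefSeq accessions named 18004 probes, 11656 of them kept. AhR and control were compared by limma (lmFit and eBayes) with Benjamini-Hochberg adjustment over all kept probes. The procedure was first run on simulated probes whose noise was drawn independently, which does not measure its power on these arrays. Correlations were tested by exact permutation. The number of arrays limits the precision. Arrays were checked for repeats, and the closest pair differed by an SD of 0.244 on the log2 scale where duplicate spots alone would give 0.092.

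The members and lists were chosen with earlier results of these data known. All 8 members are described. Of each other thyroid list the 3 genes of smallest p are named, and Slco1b2, Sult1b1, Ugt1a1, Me1, Cyp1a1, Cyp1a2 and Dbp whatever their value. Of the correlations the 3 largest are named, and for the 3 members of widest spread the 3 genes most alike. A few genes that these rules name are not reported here, in the text or the plot of differences, and stay in the counts and medians of their lists. Nr1d1 was named because its span overlaps Thra, and Nqo1 as the other kept AhR target gene. Whether pools of different arrays shared a litter is not given, and p-values measure the spread between pools. Alternatives covered background correction, normalization, the Cy5 channel alone, filters, replicate and slide row blocks, the variance model, the value table, second probes and each array left out. Medians of the lists under these alternatives were added after seeing the data.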

Additional observations from a re-analysis of the deposited data

Results flagged for a closer look

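Of 12 groups of 4 arrays examined for a sample far from the others, 2 held one, and chance gives about 1 in 20. Ttr on AhR replicate 1 was 0.19, below the other AhR arrays, with a gap of 0.984 of the group's range. The flag holds for the normalized ratios. Before normalization the Ttr signals of replicate 1 (Cy5 278999.5, Cy3 148843.5 units) were near those of replicate 4 (301761 and 150366.5 units). Replicate 2 stood apart, with 404958.5 and 116624 units. Rxra on AhR replicate 4 was 0.37, above the other AhR arrays, with a gap of 0.884 of the range.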

How the results depend on the processing

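The count of probes past an adjusted p of 0.05 was 0 in limma and under all 19 alternatives, with a lowest adjusted p of 0.214 (without control replicate 4). The count at an unadjusted p under 0.05 was 288. It was 392 with Agilent processed signals, 172 with median centring, 817 without control replicate 4 and 505 without AhR replicate 4, each among 17859 probes. With no filter on dim probes it was 715 among 30367 probes. The replicate numbers did not pair the arrays (correlations of same-numbered deviations 0.00, -0.06, 0.05 and -0.37), and with the replicate block 0 probes passed and 251 had an unadjusted p under 0.05. With a slide row block it was 297. No call of a thyroid hormone gene after adjustment changed under the 19 alternatives.

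Differences that turned sign were Thra (-0.077) and Dio1 (-0.040) with the Cy5 channel alone, and Me1 with median centring (0.014) and its next brightest probe (0.058). Leaving out 1 array in turn gave -0.052 to 0.10 for Thra, -0.054 to 0.13 for Dio1, -0.11 to 0.53 for Thrsp, -0.062 to 0.37 for Klf9, -0.29 to 0.058 for Rxra and -0.25 to 0.074 for Me1. The cause was not tested. Ttr stayed below 0 (-0.23 to -0.01) and Dbp above 0 (0.44 to 1.65). With 1 array left out, list medians ran from -0.19 to -0.07 for transporters, -0.07 to 0.00 for coregulators and -0.03 to 0.06 for hormone-responsive genes. With 4 arrays a group, of pools of 2 rats, the intervals of Thrsp, Klf9 and Rxra leave differences of up to 0.91, 0.80 and 0.61 on the log2 scale inside, and Thrb and Serpina7 were not measured here.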
